A study of Ovis aries and Capra hircus and Bos taurus with 26 samples.

Results

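The intervals described here lay on the chromosomes of the ruminant 9 to 14 translocation. They were all H3K27ac and H3K4me3 intervals on cattle chromosomes 9 and 14 (RefSeq sequences NC_037336.1 and NC_037341.1 of ARS-UCD1.2), goat 9 and 14 (NC_030816.1 and NC_030821.1 of ARS1) and sheep 8 and 9 (NC_040259.1 and NC_040260.1 of Oar_rambouillet_v1.0). The rule used the chromosome alone and no measured value. It selected 31845 of 616400 intervals (5.17%), with 15888 on the homologues of cattle 9 and 15957 on those of cattle 14. An interval is 1 stretch of the genome in the peak list of 1 library. Each library contributed between 1264 and 2824 of them, out of 24809 to 50842. Chromatin immunoprecipitation sequencing (ChIP-seq) was performed on the frozen livers of 9 healthy adult animals, with 3 Holstein cattle, 3 Texel sheep and 3 Yunnan black goats, named A, B and C within each species. No treatment or genetic change is described for any group, and cattle were 3 to 4 years old while sheep and goats were 2 to 3 years old. Species, breed, age and genome build varied together and cannot be told apart. There were 9 H3K4me3 libraries and 8 H3K27ac libraries, since cattle A had no H3K27ac list. Liver tissue holds several cell types, and fewer cells of a type and less signal per cell cannot be told apart.

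Acetylation of lysine 27 of histone H3 (H3K27ac) marks active promoters and enhancers, and trimethylation of lysine 4 (H3K4me3) marks promoters. A translocation joins a piece of a chromosome to another chromosome, so that genes keep their neighbours within the piece but gain other neighbours at the joint. In the bovid family, the cattle arrangement keeps one end of chromosome 9 on that chromosome, while goat 14 and sheep 9 carry the same piece beside the homologue of cattle 14. Cattle 14 begins with a gene-dense stretch that holds DGAT1, the enzyme of the last step of triglyceride synthesis, which is widely studied for milk fat.

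Both homologues were sparse in marks. In all 17 libraries the density of intervals was below that over all autosomes, at 0.672 to 0.779 times that level on the 9 homologue and at 0.705 to 0.854 times on the 14 homologue. On the consensus regions, which join intervals found in at least 2 animals of a species, cattle 9 had 8.11 H3K27ac regions per Mb and cattle 14 had 10.3, against a median of 13.1 over the 29 autosomes. Ranked from the sparsest autosome, cattle 9 was number 3 and cattle 14 number 9 for H3K27ac. Goat 9 and 14 held 11.8 and 12.2 regions per Mb with an autosomal median of 17.02, and sheep 8 and 9 held 9.33 and 9.13 with a median of 13.4. For H3K4me3 the homologues took ranks between 3 and 8 over the 3 species.

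The next comparison asked how intervals were divided between the homologues. In cattle, H3K4me3 had 755, 669 and 717 intervals on chromosome 9 and 687, 610 and 654 on chromosome 14 in animals A, B and C. In goats the order was turned, with 617, 743 and 757 on chromosome 9 and 647, 756 and 773 on chromosome 14. In sheep the counterparts were nearly equal, with 753, 839 and 836 on chromosome 8 and 751, 856 and 852 on chromosome 9. The 3 cattle thus had more H3K4me3 intervals on the 9 homologue in each animal, by 1.10-fold, and did not overlap with goats or sheep in this ratio. The ratio of 9 to 14 was 0.972 in goats and 0.988 in sheep on average. On the log2 scale the ratio was 0.13 ± 0.0019 in cattle, -0.041 ± 0.024 in goats and -0.017 ± 0.018 in sheep (SD, n = 3 each), and species differed (F = 89.5, p = 0.0143, exact permutation test over species labels, 0.0306 after Benjamini-Hochberg adjustment over 15 tests).

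H3K27ac divided less sharply. Cattle B and C had 1088 and 1235 intervals on chromosome 9 and 1079 and 1202 on chromosome 14. Goats A, B and C had 1114, 1389 and 1175 on chromosome 9 and 1176, 1435 and 1234 on chromosome 14. Sheep A, B and C had 1103, 999 and 1099 on chromosome 8 and 1078, 993 and 1174 on chromosome 9. The log2 ratio of 9 to 14 was 0.026 ± 0.019 in cattle (SD, n = 2), -0.065 ± 0.016 in goats and -0.018 ± 0.068 in sheep (SD, n = 3 each), so that sheep overlapped both other species. By the exact permutation test the species were not told apart (F = 2.49, p = 0.236). Without sheep C they were (p = 0.0190, the same exact permutation test).

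Counting the moved segment with the 9 homologue in every species brought the H3K4me3 ratios together. The ratio of 9 to 14 was then 1.10 in cattle, 1.09 in goats (1.07 to 1.10) and 1.10 in sheep (1.08 to 1.11), so that the species overlapped, and the exact permutation test gave p = 0.793. The limits of that segment are given below, and this recount was chosen after the data had been examined. For H3K27ac the same recount gave 1.02 in cattle, 1.07 in goats and 1.06 in sheep (p = 0.361, exact permutation test).

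Per Mb, the 14 homologue was denser than the 9 homologue in every cattle library, while goats and sheep had ratios near 1. For H3K4me3 cattle had 7.22, 6.40 and 6.86 intervals per Mb on chromosome 9 and 8.35, 7.41 and 7.95 on chromosome 14, a ratio of 1.16 in each animal. The ratio lay between 0.984 and 1.01 in the goats and between 0.941 and 0.962 in the sheep. For H3K27ac it was 1.26 and 1.24 in cattle, 0.999 to 1.02 in goats and 0.922 to 1.01 in sheep. Over all animals the log2 ratio averaged 0.046 ± 0.13 for H3K4me3 (SD, n = 9, p = 0.289) and 0.061 ± 0.17 for H3K27ac (SD, n = 8, p = 0.391), and neither passed the threshold of an exact two-sided sign-flip permutation test over animals. These means leaned on cattle, and fell to 0.025 for H3K4me3 without any 1 of cattle A, B or C and to 0.023 and 0.026 for H3K27ac without cattle B and C. When the segment was counted with the 9 homologue throughout, the 14 homologue was denser by 1.14-fold to 1.17-fold for H3K4me3 and 1.18-fold to 1.25-fold for H3K27ac in the mean of each species. The log2 ratio then averaged 0.21 for H3K4me3 (p = 0.00391, n = 9) and 0.26 for H3K27ac (p = 0.00781, n = 8), by the same exact permutation test, and these are the smallest p-values it can give. The difference between marks in the log2 ratio, H3K27ac minus H3K4me3, was 0.044 (p = 0.0510, exact permutation of mark labels within species). With the animal as a replicate block it was 0.036 (p = 0.117, exact permutation test, n = 8). With the 20000 strongest intervals the H3K27ac ratio passed the threshold (0.11, p = 0.0156), and so did the mark difference (0.11, p = 0.00025), by the same exact permutation tests. The mark difference also passed at q of at most 1e-05 (p = 0.003) and with covered length (p = 0.0182), by the exact permutation test.

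**Figure D1:**
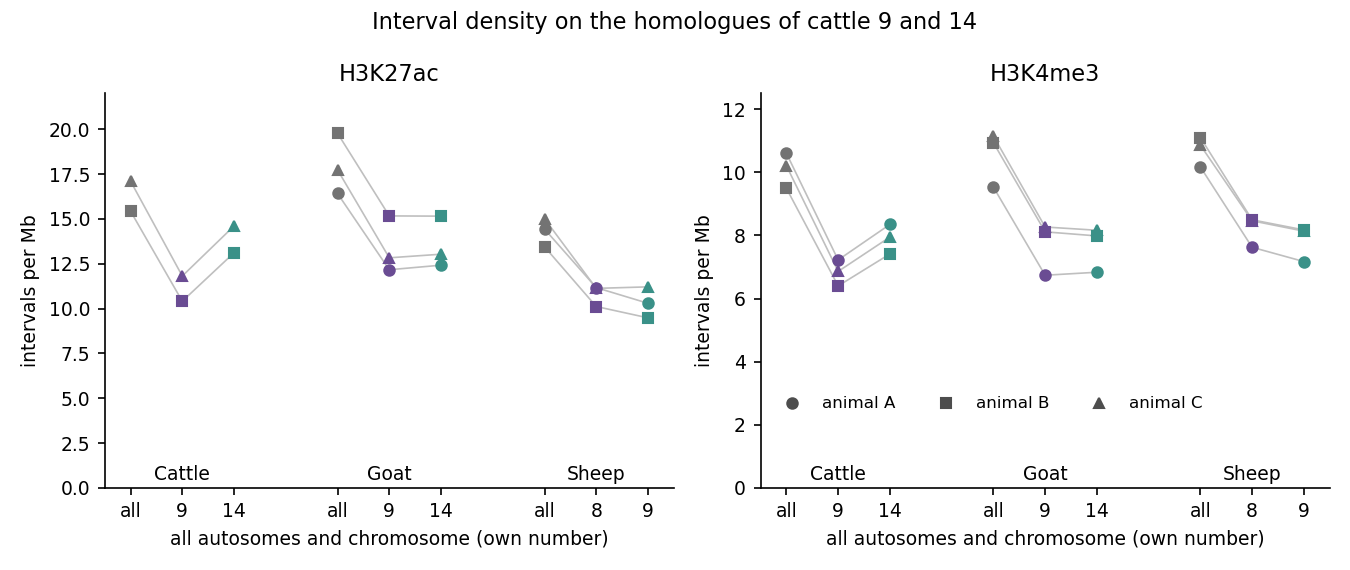
Intervals per Mb in each library (symbols for animals A, B and C) over all autosomes, on the homologue of cattle 9 and on the homologue of cattle 14, with each species' own chromosome numbers on the x axis. All 17 libraries were below their autosomal level on both chromosomes, and a rise from 9 to 14 in every animal was seen in cattle alone.

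The 2 chromosomes together held close to the same share of autosomal intervals in every library, between 5.51% and 5.79% for H3K27ac and between 5.38% and 5.86% for H3K4me3. For H3K27ac the mean was 5.69% ± 0.058 in cattle (SD, n = 2), 5.66% ± 0.14 in goats and 5.66% ± 0.068 in sheep (SD, n = 3 each), and the exact permutation test between species gave p = 0.95 (F = 0.0573). For H3K4me3 it was 5.43% ± 0.036 in cattle, 5.50% ± 0.11 in goats and 5.73% ± 0.14 in sheep (SD, n = 3 each). That difference had p = 0.0321 by the exact permutation test and 0.0603 after adjustment over the 15 tests. The difference of sheep over cattle was 0.299 percentage points, and it turned to -0.0451 with the 20000 strongest intervals (p = 0.568, exact permutation test). It missed the threshold with summits (p = 0.0643), with covered length (p = 0.0536) and in 6 of 9 repeats that each left out 1 animal (p = 0.0679 to 0.0964), by the same exact permutation test. Goat H3K4me3 lists had 21.5% to 28.6% of their intervals outside the autosomes, against at most 8.65% in the other groups. With all sequences as the whole, the H3K4me3 share was 5.18% in cattle, 4.12% in goats and 5.26% in sheep (F = 49.8, p = 0.0179, exact permutation test), so that goats were then lowest and cattle and sheep were 0.0802 percentage points apart.

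The positions of consensus H3K4me3 regions were then used to place cattle 9 and 14 on the other genomes, because no sequence alignment was used here. Windows of 4 Mb were slid in both orientations along every autosome, and the place with the highest Pearson correlation of the smoothed profiles was kept. These correlations are descriptions without a test, since neighbouring windows share regions. Of 157 windows of cattle 14, 96 had their best place on goat 14, and 93 of these were in reverse orientation. On sheep 9, 55 of the 157 windows had their best place, 52 of them in forward orientation. Of the 179 windows of cattle 9 beyond the moved segment, 106 lay on goat 9, 105 of them forward, and 58 lay on sheep 8, 57 of them forward. The windows placed on the counterpart had a median r of 0.792 for cattle 14 and 0.817 for the rest of cattle 9 in goats, and of 0.744 and 0.782 in sheep. Goat 14 therefore runs in the opposite direction to cattle 14 by this measure, whereas sheep 9 runs in the same direction.

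The moved segment itself was not placed by this match. Of its 22 windows, 1 was best placed on goat 14, in reverse orientation, and 0 on sheep 9. The windows held a median of 11 regions, and 11 of them held at least 10, including the 1 on goat 14. With H3K27ac regions, 2 windows were placed on goat 14 and 4 on sheep 9, all in reverse orientation. Taken as a whole, with a stretch between 0.94 and 1.16 allowed, the segment ranked goat 14 as number 2 of 29 autosomes (r = 0.613, with 0.641 on the best one) and sheep 9 as number 1 of 26 (r = 0.606). On goat 14 the forward orientation gave r = 0.613 and the reverse gave 0.434. On sheep 9 the reverse orientation gave r = 0.606 and the forward gave 0.455. By the higher r of each pair, the first base of cattle 9 would face the first base of cattle 14 on both goat 14 and sheep 9. In goats this orientation rests on the whole-segment r alone, and the placed windows of both marks ran the opposite way. The assignment of the segment to goat 14 and sheep 9 comes from the rule that defined the chromosomes, not from this match.

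The limits of the segment followed from the denser chromosomes around it. The first run of windows on goat 9, from chr9:17500001-21500000 in cattle to chr9:4810001-8810000 in goats (r = 0.728), set the first base of goat 9 at 12.69 Mb of cattle 9. The first 1 Mb of cattle 14, matched in bins of 2 kb, had its best place of all goat autosomes at chr14:80940001-81940000 in reverse (r = 0.632, with 0.526 on the next autosome). Its best place of all sheep autosomes was chr9:14208001-15208000, forward (r = 0.667, with 0.503 on the next one). The segment was hence taken as chr9:1-12690000 in cattle (12.69 Mb), chr14:81940001-94672370 in goats (12.7 Mb) and chr9:1-14208000 in sheep (14.2 Mb). The fit of the whole segment overlapped the matched first megabase by 0.51 Mb in goats and 0.529 Mb in sheep, so the joint is known no better than that. With H3K27ac regions, the first 1 Mb of cattle 14 had its best place on other autosomes, goat 20 and sheep 4, with r of 0.546 in both. Sheep 9 came next with 0.537, whereas goat 14 had 0.521, below another goat autosome with 0.541. Their best starts were 80942001 in goats and 14208001 in sheep, both within 2 kb of the H3K4me3 places.

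Across the joint the counts per megabase changed steeply, though not at the joint itself. Of the 1 Mb on the cattle 14 side, the 229 kb nearest the joint held few consensus regions. These were 6 H3K27ac and 4 H3K4me3 regions in goats and 4 and 3 in sheep. In goats the 1 Mb on the cattle 14 side held 71, 86 and 64 H3K27ac intervals in animals A, B and C, and the next 1 Mb in the moved segment held 10, 11 and 9. For goat H3K4me3 these counts were 61, 63 and 65 against 3, 5 and 4. In sheep they were 56, 63 and 60 against 5, 7 and 8 for H3K27ac, and 56, 58 and 54 against 6, 6 and 5 for H3K4me3. The 2 sides did not overlap in any of the 12 goat and sheep libraries. By the orientation with the higher whole-segment r, the same 2 stretches in cattle are the starts of separate chromosomes. The first 1 Mb of cattle 9 was fuller, with 18 and 21 H3K27ac intervals in animals B and C and 16, 18 and 15 H3K4me3 intervals in animals A, B and C. The joint is known only to 0.51 Mb in goats and 0.529 Mb in sheep. Whether the segment stretches face each other was not tested.

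Beyond that megabase lay a stretch almost free of both marks. The next 6 Mb of the segment held 0 to 5 intervals in any library of any species, and the remainder held 28 to 63. The longest stretch without a consensus region of either mark was chr14:84032537-88827837 in goats (4.80 Mb) and chr9:8354600-13434147 in sheep (5.08 Mb), and each was the longest such gap of all autosomes of its species. In cattle the longest gap of the segment was chr9:3538915-6876905 (3.34 Mb), which ranked 12 among the autosomal gaps.

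**Figure D2:**
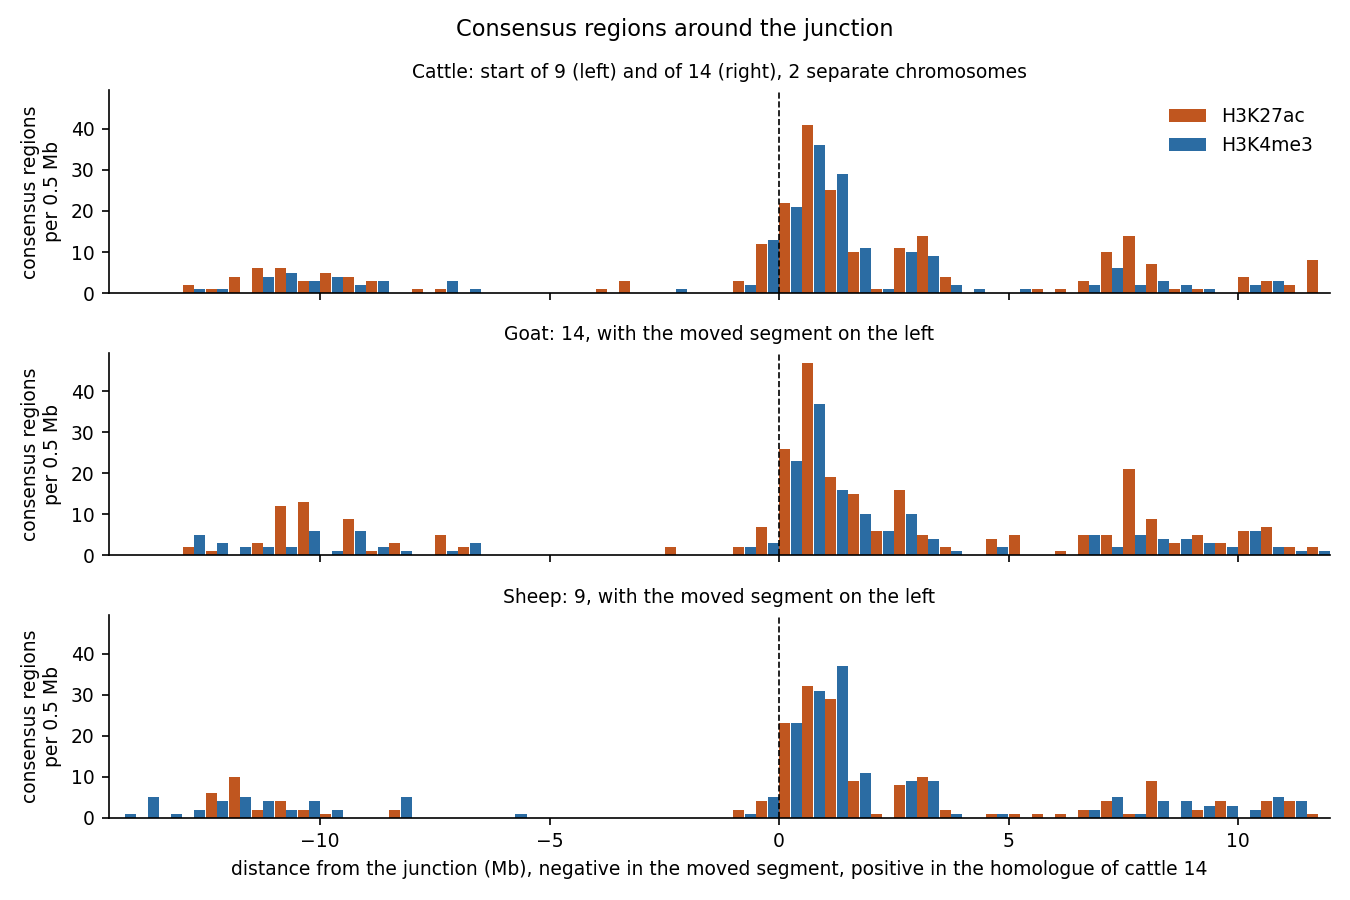
Consensus regions per 0.5 Mb (H3K27ac orange, H3K4me3 blue) by distance in Mb from the joint, with the moved segment at negative and the homologue of cattle 14 at positive distances. In goats and sheep the dense 1 Mb block is followed by 1 Mb of the segment with 3 to 11 intervals in a library and then by 6 Mb with at most 5, and in cattle the 2 sides are separate chromosomes.

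The moved segment was sparser than the rest of the 9 homologue in all 17 libraries, and by different amounts in the 3 species. For H3K27ac the cattle B and C segments held 79 and 78 intervals, those of goats A, B and C held 66, 79 and 65, and those of sheep A, B and C held 41, 35 and 37. Per Mb this was 6.19 ± 0.056 in cattle (SD, n = 2), 5.50 ± 0.61 in goats and 2.65 ± 0.22 in sheep (SD, n = 3 each), against 11.8, 13.4 and 10.8 on the rest of the 9 homologue. The segment thus had 0.526 times the density of the rest in cattle, 0.411 times in goats and 0.245 times in sheep. Species differed in this log2 ratio (F = 106, p = 0.00357, the smallest p of this exact permutation test, 0.0195 after adjustment), and the 3 sets of values did not overlap.

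For H3K4me3 the segment held 54, 49 and 48 intervals in cattle A, B and C, 36, 41 and 45 in the goats, and 39, 45 and 42 in the sheep. Relative to the rest, its density was 0.549 in cattle, 0.414 in goats and 0.361 in sheep, again without overlap between species in this ratio (F = 81.3, p = 0.00357, exact permutation test, 0.0195 after adjustment). The density of the segment itself overlapped between goats (2.83 to 3.53 per Mb) and sheep (2.74 to 3.17). The rest of the 9 homologue averaged 7.71 per Mb in goats and 8.19 in sheep. The megabase taken to lie at the joint, the first of chromosome 9 in cattle, carried much of the distance between cattle and goats. That these megabases face each other rests on the goat orientation and a joint known to 0.51 Mb, and was not tested. Without that megabase, a recount chosen after the data were examined, the ratio for H3K4me3 was 0.402 in cattle, 0.406 in goats and 0.335 in sheep, so that cattle and goats overlapped (p = 0.0357, exact permutation test over the 3 species). For H3K27ac it was 0.429, 0.382 and 0.216 (p = 0.00714, the same exact permutation test), and cattle and goats overlapped here too. In both marks sheep stayed below every animal of the other two.

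**Figure D3:**
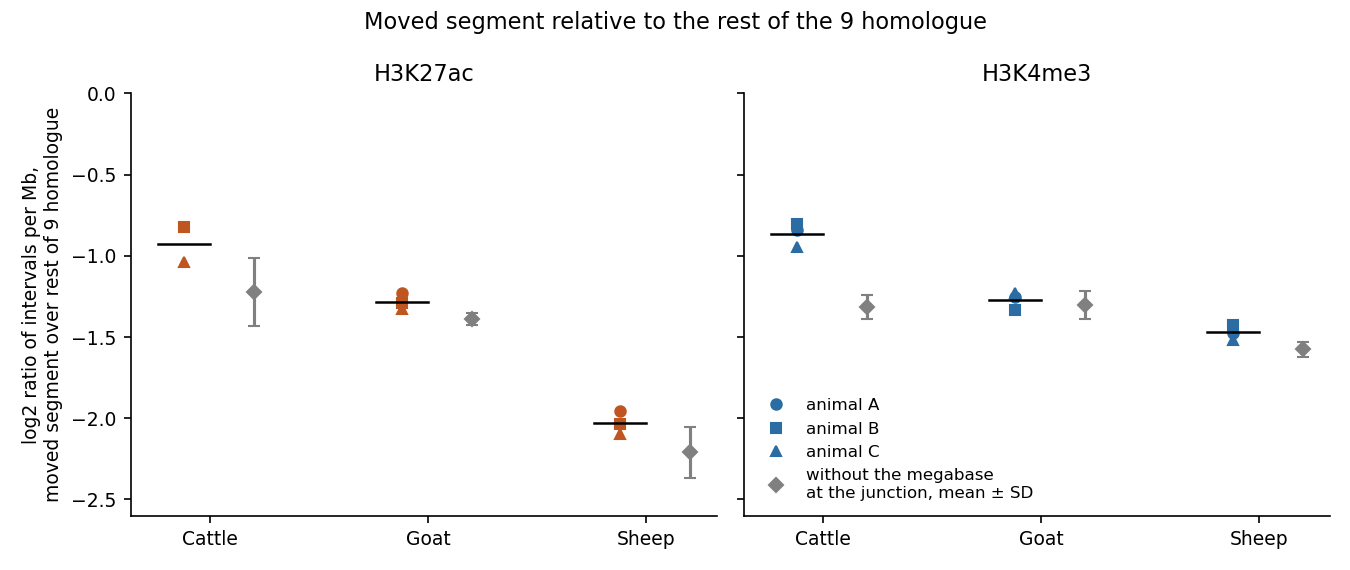
Log2 ratio of intervals per Mb in the moved segment over the rest of the 9 homologue, per animal with the mean as a bar, for H3K27ac (left) and H3K4me3 (right), and as a grey diamond (mean and SD) without the megabase at the joint. The values were below 0 in all 17 libraries and lowest in sheep, and the H3K4me3 means of cattle and goats met at -1.32 and -1.30 without that megabase.

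The segment offered few regions for pairing between species. Along the fitted whole-segment match, 40 of the 55 cattle H3K27ac regions (72.7%) had a goat region within 50 kb and 26 (47.3%) had a sheep region. Of the 43 H3K4me3 regions, on which the match was fitted, 34 and 31 had one. Of the matched length, 23.96% in goats and 15.9% in sheep lay within 50 kb of an H3K27ac region, and 21.1% and 20.4% within 50 kb of an H3K4me3 region. The first region of cattle 9 lay at chr9:7613-8097. At the limit of 12.69 Mb on cattle 9, the last region inside the segment carried both marks, H3K27ac at chr9:12647058-12648354 and H3K4me3 at chr9:12647096-12648319, each in every cattle library of its mark. The next region outside was H3K4me3 at chr9:12736377-12737266, without H3K27ac in the consensus.

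Regions stood on either side of the joint within short distances. In goats the last H3K27ac region before it was chr14:81925116-81925817, with fold enrichments of 4.09, 4.03 and 5.04 in animals A, B and C, and the first after it was chr14:81945979-81947829 with 3.54, 3.52 and 3.67. Both were found in all 3 goats. Fold enrichment is the ratio of signal to background that the authors' peak caller gave. The nearest H3K4me3 regions were chr14:81913596-81915089 and chr14:81946000-81947991. In sheep H3K4me3 lay at chr9:14189029-14191304 on the segment side (fold enrichment 4.11, 3.33 and 4.61) and at chr9:14223395-14225864 on the other (7.19, 6.81 and 5.23). Both sheep regions also carried H3K27ac, at chr9:14189336-14191221 and chr9:14223948-14225081.

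The gene-dense start of cattle 14 was among the fullest autosomal megabases in each species. Its 1 Mb held 67 and 65 H3K27ac intervals in cattle B and C, and 61, 58 and 59 H3K4me3 intervals in cattle A, B and C. As consensus regions it held 63 for H3K27ac and 57 for H3K4me3, and 10 of 2502 autosomal windows of 1 Mb in cattle (0.3997%) exceeded each number. The matched goat block held 73 and 60 regions, exceeded by 11 of 2477 windows for each mark. The matched sheep block held 55 and 54, exceeded by 31 of 2667 windows for H3K27ac and 19 for H3K4me3. The median window held 7 to 13 regions.

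Compared with the rest of the 14 homologue, the block was denser in every library. That rest includes the sparse moved segment in goats and sheep but not in cattle. For H3K27ac the ratio was 5.38 and 4.65 in cattle, 6.02, 5.97 and 5.12 in goats and 5.68, 7.03 and 5.59 in sheep. For H3K4me3 it was 7.92, 8.54 and 8.06 in cattle, 9.75, 8.52 and 8.60 in goats and 8.36, 7.54 and 7.02 in sheep. The block thus held 5.11% to 6.34% of the H3K27ac intervals and 6.34% to 9.51% of the H3K4me3 intervals of its chromosome on 0.955% to 1.22% of its length. The mean log2 ratio was 2.50 ± 0.18 for H3K27ac (SD, n = 8) and 3.04 ± 0.13 for H3K4me3 (SD, n = 9). The start was chosen as gene-dense, its goat and sheep places were found with H3K4me3 regions, and most of its H3K27ac intervals overlapped H3K4me3, so these densities are descriptions of both marks and no test is read from them. The same holds between species, since the goat and sheep blocks were placed by likeness to cattle, and the species means are given without a test. For H3K27ac the mean log2 ratio was 2.32 in cattle, 2.51 in goats and 2.60 in sheep, and 2.32, 2.38 and 2.44 with the moved segment left out of the rest. For H3K4me3 it was 3.03, 3.16 and 2.93, and 3.03, 3.04 and 2.80 without the segment. In covered length the H3K4me3 order was another, with cattle lowest (3.21) and sheep (3.36) and goats (3.51) above.

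Most regions of the cattle block had a partner near the projected place in goats and sheep. The counts below are of cattle regions, and neighbouring cattle regions could share the same goat or sheep partner. They are therefore not counts of separate goat or sheep regions. Of the 63 cattle H3K27ac regions, 51 had a goat H3K27ac region within 5 kb of the projected place (81.0%), 43 had a sheep one (68.3%) and 38 had both. The H3K27ac regions took no part in the placement, but most of them overlap H3K4me3 regions, which did. Of the 57 H3K4me3 regions, 48 had a goat region, 45 a sheep region and 40 both, and 4 had neither. The regions of the block lie close together, so these shares are read against its covered length: 47.3% of the goat block and 37.9% of the sheep block lay within 5 kb of an H3K27ac region, and 46.6% and 41.9% within 5 kb of an H3K4me3 region. The pair counts are descriptions without a test.

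The 3 cattle regions of the block with the highest lowest fold enrichment were taken in each mark. Within 5 kb of the projected place, 2 had partners in both other species and 1 in goats alone. The H3K27ac region with the highest lowest fold enrichment in cattle, chr14:739491-740560, had 11.6 and 13.2 in animals B and C. Its goat counterpart was chr14:81202089-81203126 (10.7, 8.65 and 11.1 in animals A, B and C) and its sheep counterpart chr9:14947182-14948216 (9.53, 12.1 and 9.15), and each of these also ranked first for H3K27ac in the block of its species. For H3K4me3 the first-ranked region in cattle was chr14:569673-570571, with fold enrichments of 14.4, 14.04 and 14.1. It faced chr14:81372617-81373489 in goats (14.9, 16.9 and 16.8), which ranked second there, and chr9:14776619-14777477 in sheep (16.3, 17.4 and 15.7), which ranked first. The cattle region at chr14:274967-276039 (11.6, 12.6 and 12.7) faced chr9:14486605-14487677 in sheep (13.5, 13.6 and 14.6), 3.64 kb from the projected place, and chr14:81660186-81661238 in goats. A further H3K4me3 region, chr14:507923-509207 in cattle (11.4, 13.2 and 16.4), had a goat partner within 5 kb of its projected place, at chr14:81426223-81427215, and none within that distance in sheep. A little beyond it lay chr9:14722723-14723735 (13.5, 14.4 and 14.4), 1 of the 3 first-ranked H3K4me3 regions of the sheep block. The lack of a sheep partner therefore depends on the 5 kb limit. The H3K27ac regions at the first and the last of these H3K4me3 places ranked next in that mark, with 8.70 and 8.89 at chr14:569595-570529 and 8.04 and 9.94 at chr14:507928-509148. The former had partners in both other species. The latter had one within 5 kb in goats alone, with the nearest sheep region 6.04 kb from the projected place. All of these H3K4me3 regions of cattle also carried H3K27ac.

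The outer edge of the block differed. In cattle, the first H3K4me3 region of chromosome 14 was chr14:228798-229834 and the first H3K27ac region chr14:252118-252675, so the 229 kb before them held 0 regions of either mark. The corresponding 229 kb held 6 H3K27ac and 4 H3K4me3 regions in goats and 4 and 3 in sheep. Whether these face sequence of cattle 14 or of cattle 9 was not tested, as no genome sequence was used.

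**Figure D4:**
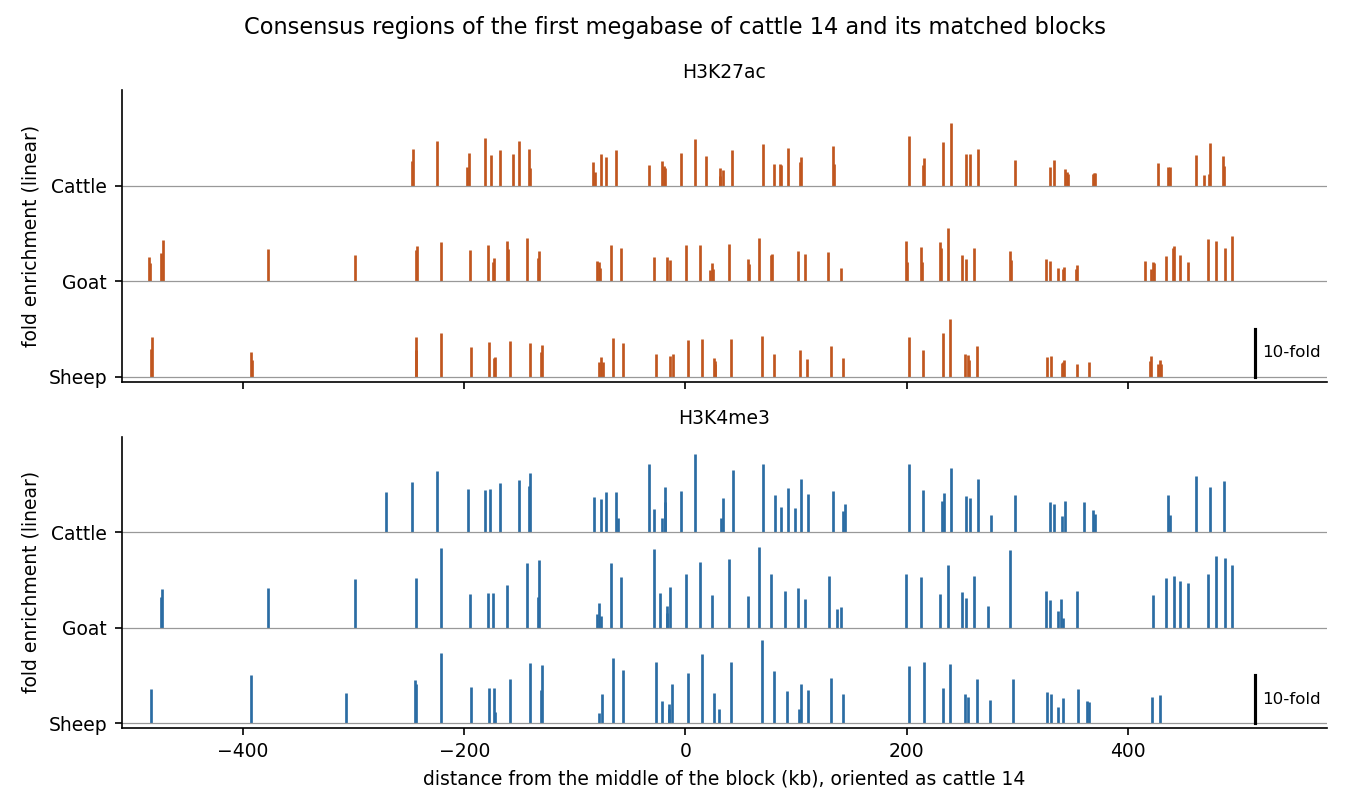
Consensus regions of H3K27ac (top) and H3K4me3 (bottom) in the first megabase of cattle 14 and the matched goat and sheep blocks, drawn as lines whose height is the highest fold enrichment of the animals, by distance in kb from the middle of the block. Of the cattle regions, 38 of 63 for H3K27ac and 40 of 57 for H3K4me3 have a goat and a sheep region within 5 kb of the projected place, and the left 229 kb is empty in cattle.

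Gene names could be attached only through gene order in another sheep assembly, ARS-UI_Ramb_v3.0, whose coordinates were not used. Of 29 genes listed for the start of cattle 14, 28 were annotated on sheep 9 there, and 27 of them within 30 coding genes of DGAT1. Its neighbours included HSF1, the heat shock transcription factor, CPSF1, a subunit of the mRNA cleavage and polyadenylation machinery, SLC39A4, a zinc importer, GPT, the alanine aminotransferase, and OPLAH, the 5-oxoprolinase of the glutathione cycle. SLC52A2, a riboflavin transporter, stood 4 coding genes from DGAT1 and HSF1 next to it.

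On that assembly 50 coding genes preceded DGAT1 on sheep 9. The first of them were DDX43, OOEP and KHDC3L, followed by KCNQ5, a potassium channel, RIMS1, a synaptic protein, and COL9A1 and COL19A1, which are collagens. ADGRB3, an adhesion receptor of neurons, PHF3 and PTP4A1, a phosphatase, came next, and the zinc finger genes ZNF250, ZNF16 and ZNF34 and the ribosomal protein gene RPL8 followed them. Sheep 8 began with CGAS, the cytosolic DNA sensor, MTO1 and EEF1A1, a translation elongation factor. Of 14 liver genes listed for the 9 homologue, 13 were on sheep 8 and 0 on sheep 9, among them ARG1 (arginase of the urea cycle), PLG (plasminogen) and SOD2 (mitochondrial superoxide dismutase). Of 14 listed for the 14 homologue, 12 were on sheep 9, among them TTPA, the liver transfer protein for vitamin E, and TRIB1. No region was assigned to a gene, because the assembly differs from that of the lists.

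The last comparison asked how the marks overlapped on these chromosomes. The share of H3K27ac intervals without any H3K4me3 interval of the same animal was higher on both homologues than on the other autosomes in 8 of 8 animals. On the 9 homologue it was 56.6% and 58.1% in cattle B and C, 54.2%, 53.9% and 49.9% in goats A, B and C and 51.3%, 41.7% and 46.8% in sheep A, B and C. On the 14 homologue it was 57.5% and 59.9% in cattle, 54.8%, 55.6% and 52.03% in goats and 52.04%, 42.7% and 47.9% in sheep. The other autosomes had 52.9% and 55.3% in cattle, 49.6%, 51.0% and 48.3% in goats and 47.2%, 40.5% and 45.2% in sheep. The difference was 2.81 percentage points ± 1.27 on the 9 homologue and 4.04 ± 1.08 on the 14 homologue (SD, n = 8 each, p = 0.00781 for both, the smallest p of the exact two-sided sign-flip permutation test, 0.0195 after adjustment).

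Within the 14 homologue the block went the other way. In it 9.38% to 23.9% of the H3K27ac intervals lacked H3K4me3, against 42.9% to 61.5% in the moved segment. By consensus region, the cattle block had 49 promoters (H3K27ac regions covered over at least 50% by H3K4me3) and 11 enhancers (no H3K4me3 overlap), the goat block 63 and 10, and the sheep block 49 and 5. Enhancers were 17.5%, 13.7% and 9.09% of the block's H3K27ac regions in cattle, goats and sheep, against 44.0%, 46.6% and 40.3% on the other autosomes. The moved segment had 26 promoters and 28 enhancers in cattle, 27 and 33 in goats and 18 and 14 in sheep.

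**Figure D5:**
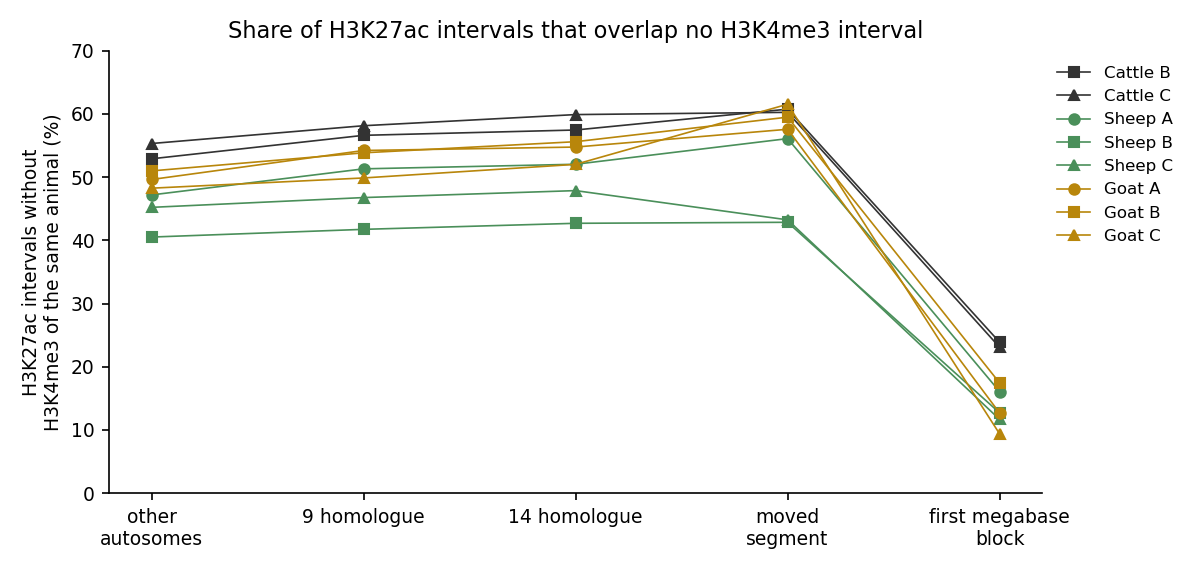
Percent of H3K27ac intervals that overlap no H3K4me3 interval of the same animal, with 1 line for each of the 8 animals, over the other autosomes, both homologues, the moved segment and the first megabase block. The lines rise slightly from the other autosomes to both homologues in every animal and fall to 9.38% to 23.9% in the block.

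Intervals of the block were also wider, and the H3K4me3 intervals of the moved segment narrower. The median H3K4me3 interval of a library was 817 to 1110 bp wide in the block, 467 to 650 bp in the segment and 702 to 807 bp on the other autosomes. For H3K27ac it was 568 to 798 bp in the block, 358 to 511 bp in the segment and 458 to 520 bp on the other autosomes, and the segment exceeded the other autosomes in 2 of 8 libraries. The block exceeded the other autosomes in width in 17 of 17 libraries, 9 of 9 for H3K4me3 and 8 of 8 for H3K27ac. The median fold enrichment of H3K4me3 in the segment was lower than on the other autosomes in 9 of 9 libraries, by 1.27 in the median. Intervals of the block recurred in another animal (by at least 50% of their length) at 86.2% to 95.5% for H3K27ac and at 86.9% or more for H3K4me3. On the other autosomes H3K27ac had shares of 63.8% to 86.1% and H3K4me3 of 84.3% to 97.0%.

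Regions of a chromosome were ranked by the lowest −log10 q over the libraries, and the first-ranked of each chromosome and mark is termed strongest here. By this measure the strongest regions lay outside the block, and on cattle 9, cattle 14 and goat 14 those of both marks lay at nearly the same place. On cattle 9 that place was within the moved segment, H3K27ac at chr9:10886360-10886988 with fold enrichments of 20.1 and 19.9 and H3K4me3 at chr9:10886358-10887006 with 20.95, 23.6 and 23.96. Their −log10 q values reached 546 and 714. On cattle 14 it was at the edge of the longest gap of that chromosome, H3K4me3 at chr14:52066636-52067778 (17.2, 16.9 and 18.5) and H3K27ac at chr14:52066640-52067706 (18.1 and 18.7). On goat 14 it was within 2 kb of the last interval of the chromosome, H3K27ac at chr14:94670861-94671620 (13.2, 14.4 and 14.8) and H3K4me3 at chr14:94670860-94671645 (9.66, 10.4 and 7.58). That H3K4me3 region came first by −log10 q but not by fold enrichment, which was higher in every goat in the 3 first-ranked regions of the block, for example 15.1, 16.5 and 14.99 at chr14:81468220-81469363. On sheep 9 the strongest H3K27ac region was chr9:15365943-15366725 (11.98, 10.3 and 11.6), a little beyond the block, and the strongest H3K4me3 region was chr9:84611630-84612565 (17.6, 16.6 and 16.6). On the 9 homologue of the other species the strongest H3K4me3 regions were chr9:27989079-27990239 in goats (19.4, 18.1 and 17.8) and chr8:37015483-37016784 in sheep (10.96, 11.9 and 13.7).

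The widest consensus regions were found for H3K4me3. They were 3851 bp on goat 14 (chr14:35917254-35921104), 3141 bp on sheep 9 (chr9:74791459-74794599) and 3080 bp on cattle 14 (chr14:46163170-46166249), each in all 3 animals and overlapping H3K27ac. The widest H3K27ac region of the 6 chromosomes was 3009 bp, at chr8:88146462-88149470 in sheep, with fold enrichments of 4.07, 4.20 and 3.95. The widest regions had fold enrichments of 3.90 to 7.33 in any animal, below those of the strongest regions of the same chromosome and mark.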

How the data were processed

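The members and gene lists were chosen with earlier results of these data known. Per the labels, the authors used Trim Galore 0.4.0, FastQC 0.11.2, BWA 0.7.17, Picard 2.25.0, MACS2 2.1.1 and deepTools 3.1.1, and MACS2 kept peaks at q under 0.01. Use of the 9 inputs as background is not stated in the sources used here, and the inputs entered no comparison. The 17 deposited lists give a fold enrichment, which is a ratio of signal to background, with the p-value and the q-value each as −log10, from the authors' peak caller. The methods state that paired-end libraries were brought to 1 common read number before peaks were used. The lists hold no read numbers, so whether they come from those reads was not checked, and 2 or 3 animals per group set the precision.

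The 840697 rows, 1 per summit, were joined into 616400 intervals with the highest values of their summits. Consensus regions merged intervals covered over at least 50% in at least 2 animals. Chromosome length was the end of the last interval of any library. Position profiles used bins of 10 kb and a Gaussian of SD 30 kb, or 2 kb and 4 kb for the first megabase of cattle 14. Bins of 5 kb and an SD of 20 kb were used for the whole segment. Animal letters pair the marks of 1 liver by the sample titles and pair nothing between species. Tests were exact permutations of species labels (F), of mark labels within species, or sign flips over animals, with a threshold of 0.05 and Benjamini-Hochberg adjustment over 15 tests, and were tested on simulated data. Python 3.11.15, numpy 2.4.6, pandas 2.3.3, scipy 1.17.1 and matplotlib 3.10.9 were used. Regions were named by rule: the strongest (highest lowest −log10 q over libraries) and the widest of each chromosome and mark, the 3 of the first megabase with the highest lowest fold enrichment, and those nearest the limits of the segment. The goat and sheep partners of a named region in the block were given beside it. Counting the segment with 9, leaving out its first megabase and leaving the segment out of the rest of 14, and the shares of length near a region, were added after the data were examined.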

Additional observations from a re-analysis of the deposited data

Results flagged for a closer look

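The density of the moved segment relative to the rest of the 9 homologue differed between species for both marks. The log2 ratio of cattle exceeded that of sheep by 1.10 for H3K27ac and by 0.61 for H3K4me3 (p = 0.00357 for both, exact permutation test), with 0 overlap between the species. Without the megabase at the joint the differences were 0.99 and 0.26 (p = 0.00714 and 0.0357, exact permutation test), and cattle and goats overlapped for both marks. With the 20000 strongest intervals the H3K4me3 difference was 1.11 (p = 0.00357, exact permutation test).

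The H3K4me3 count ratio of the 9 to the 14 homologue differed between species, with cattle above goats by 0.18 on the log2 scale (p = 0.0143, exact permutation test). It was 1.10 in cattle, 1.09 in goats and 1.10 in sheep once the segment was counted with 9 in every species.

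The share of autosomal H3K4me3 intervals on both chromosomes was higher in sheep than in cattle by 0.299 percentage points (p = 0.0321, exact permutation test, 0.0603 after adjustment over 15 tests). It turned to -0.0451 with the 20000 strongest intervals and missed the threshold with summits, with covered length and in 6 of 9 repeats that each left out 1 animal. With all sequences as the whole, sheep exceeded cattle by 0.0802 percentage points and goats were lowest at 4.12% (p = 0.0179, exact permutation test). No group held 4 or more libraries, so single libraries were not tested for lying apart.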

How the results depend on the processing

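The lists carry no read numbers, and 2 or 3 animals per group limit what can be told apart. The block was denser than the rest of 14 under every alternative. The moved segment by species, the H3K27ac-only shares on both homologues and the H3K4me3 density ratio of 14 over 9 kept their direction and side of the threshold under every alternative except the recount with the segment on 9, and so did the H3K4me3 count ratio. The size of the H3K4me3 segment difference between cattle and sheep was less stable, at 0.61 as reported, 1.11 with the 20000 strongest intervals and 0.26 without the megabase at the joint. The alternative that trimmed the segment by 0.5 Mb cut it at its 12.69 Mb limit in cattle but at the joint in goats and sheep. No alternative lengthened the segment, so its dependence on the error of the joint was not tested. The recount with the segment on 9, added after the data were examined, moved the density ratio to 0.26 for H3K27ac and 0.21 for H3K4me3, both then past the threshold. It moved the count ratio by species to -0.0704 for H3K27ac, reversed, and 0.0112 for H3K4me3, no longer past it. The cause of these and the following changes was not tested. The block by species is given below as values only, since the goat and sheep blocks were placed by likeness to cattle.

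With the 20000 strongest intervals, the H3K27ac density ratio was 0.11 (p = 0.0156, exact permutation test), the H3K27ac count ratio by species 0.15, the H3K4me3 share by species -0.0451 (reversed), and the mark difference 0.11, with the density ratio, the count ratio and the mark difference past the threshold. The mark difference also passed it at q of at most 1e-05 (0.0894) and with covered length (0.0484). Paired by animal as a replicate block it was 0.036 (p = 0.117, exact permutation test) and stayed on the same side of the threshold. With intervals within 500 bp merged, the H3K27ac share by species was -0.0156 (reversed). The H3K4me3 block by species (goats minus sheep) was 0.23 as reported, 0.12 with the 20000 strongest intervals, 0.30 with intervals within 500 bp merged, 0.16 with covered length and -0.16 with a block of 2 Mb (reversed). The H3K27ac block by species (sheep minus cattle) was 0.34 with a block of 2 Mb. The H3K4me3 share by species was 0.22 with summits and 0.18 with covered length, no longer past it.

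Leaving out 1 animal moved the H3K4me3 share by species between 0.234 and 0.376 percentage points, missing the threshold without cattle A, B or C, goat B or C, or sheep C. It moved the density ratio of 14 over 9 between 0.023 and 0.087 for H3K27ac, lowest without cattle B, and between 0.025 and 0.063 for H3K4me3, lowest without cattle C. It moved the H3K27ac share between -0.042 and 0.0994, reversed without cattle C or goat C. The mark difference lay between 0.033 and 0.0506, past the threshold without goat A or sheep A. The H3K4me3 block by species lay between 0.17 and 0.30 and that for H3K27ac between 0.17 and 0.38. The H3K27ac count ratio lay between 0.0773 and 0.104, past it without sheep C.

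Of 358 windows, 203 were placed on the counterpart in goats and 113 in sheep. With H3K27ac regions these numbers were 92 and 68 of 359 windows, and with windows of 2 Mb 102 and 55 of 366.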
